A study of Paralichthys olivaceus with 24 samples.

Results

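The muscle of olive flounder (Paralichthys olivaceus, a farmed flatfish) was compared between water at 28 °C and water at 12 °C, gene by gene. The genes were chosen by a rule on level alone: every row of the deposited expression table whose mean over the 2 libraries was at least 1 RPKM (mapped reads scaled to transcript length and to the size of the library). That rule kept 4378 of 11646 rows with values. Of the 4378 genes, 2993 had a symbol and 1385 had only a numbered identifier. The study warmed flounder in an acute and in a chronic regime and sequenced several tissues. Both libraries belong to the series named C in the sample titles and came from fish aged 9 months, with total RNA of muscle as the source. Fish were first held at 12 °C, and the 12 °C library carries no warming. For gradual warming the protocol gives 3 °C per h up to 18, 23 or 28 °C and then at least 20 h at that temperature, and the labels do not spell out that the letter C marks this regime. Each treatment group had 15 fish, and the labels do not say how many fish a library holds. The design text speaks of duplicates, but the table has 1 column per temperature, and whether it pools them is not stated. One library stands on each side, so every fold below describes 2 libraries and carries no error, no p-value and no replicate check. The 18 and 23 °C muscle libraries of the same series are given as values beside the named genes.

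A fish takes the temperature of its water, so a warm day reaches its muscle proteins directly. Heat unfolds proteins, and cells answer with heat shock proteins that refold or clear them, and with chaperones of the endoplasmic reticulum for proteins on the secretory route. Skeletal muscle adds demands of its own: myosin needs dedicated folding factors, contraction is triggered through acetylcholine receptors and calcium channels, and fibre size depends on the balance of protein synthesis and breakdown. The genes outside the heat shock and endoplasmic reticulum families take most of the space below.

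Folds are log2((RPKM at 28 °C + 1)/(RPKM at 12 °C + 1)), which understates the difference of low genes, and a gene counts as higher or lower at a log2 fold of at least 1 in size. Where 4 values follow a gene they are RPKM at 12, 18, 23 and 28 °C, and where 2 follow they are RPKM at 12 and 28 °C. By this count 1497 of the 4378 genes (34.2%) were higher and 984 (22.5%) were lower, and 1897 lay within 2-fold. A gene called within 2-fold is so after 1 RPKM is added, and can differ by more in RPKM itself. These 2 percentages are the background for every list of genes below. The median log2 fold over all genes was 0.01, with quartiles of -0.93 and 1.25. Every row of the deposited table passes 2-fold from 12 °C in at least 1 of the authors' own columns, so these shares are not shares of all muscle genes. Scaling was tried by the median ratio of the pair and by the constant that the authors' own 28 °C column adds to every ratio, -0.14 on the log2 scale, and where a list count given below differs by over 1.5 times under either, the other count follows it. Genes just past the limit were leng9 at 1.97 and 4.95 RPKM and nat14 at 1.75 and 0.374 RPKM, and just short of it were tor2a at 2.33 and 5.66 RPKM and kansl3 at 5.26 and 2.13 RPKM.

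The higher side had the longer tail. A log2 fold of 3 or more was reached by 94 and 56 genes on the higher side (3 to 4, and 4 or more), against 24 and 3 on the lower side. Of the 1497 higher genes, 474 were under 1 RPKM at 12 °C and so met the minimum only through their 28 °C value. Likewise 254 of the 984 lower genes were under 1 RPKM at 28 °C and met it only through their 12 °C value. The lists below hold genes of both kinds. Among the 3022 genes at 1 RPKM or more in both libraries, 1023 (33.9%) were higher and 730 (24.2%) lower. Of the 72 genes with a mean of 100 RPKM or more over the 2 libraries, 41 (56.9%) were higher and 18 lower. Of the 51 genes at 100 RPKM or more at 12 °C, 3 were higher and 35 lower, a set that favours lower calls because it was chosen by its 12 °C value.

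**Figure D1:**
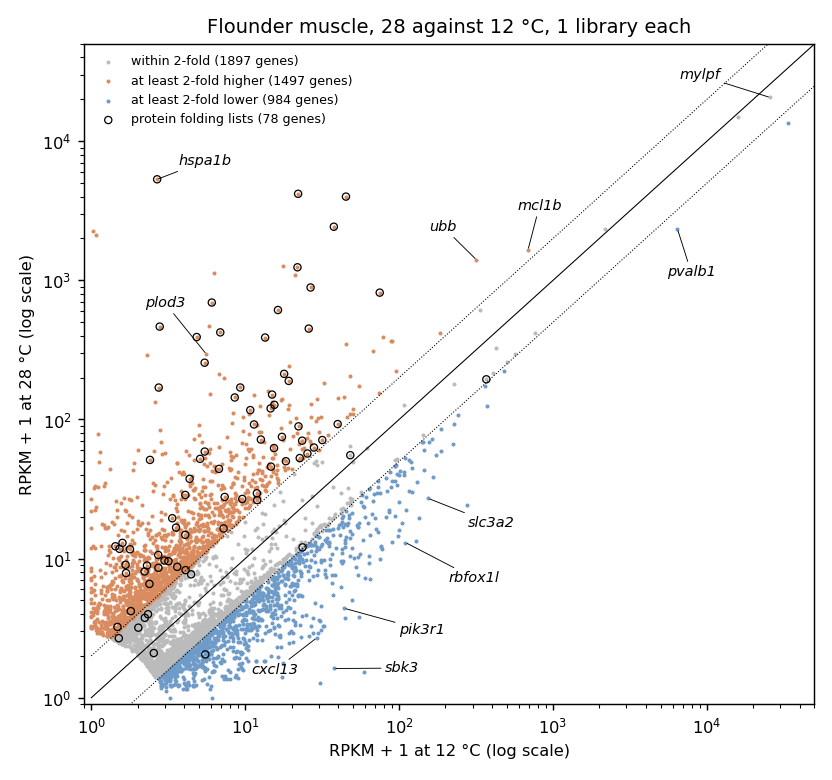
Each point is 1 of 4378 genes, with RPKM + 1 at 12 °C on the horizontal and at 28 °C on the vertical axis, both on log scales. Orange points are the 1497 genes at least 2-fold higher and blue points the 984 at least 2-fold lower, dotted lines mark 2-fold, and open circles are the 78 genes of the 3 protein folding lists, of which 68 were higher.

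Protein folding genes took a large part of the 28 °C values. The 84 rows of the heat shock, endoplasmic reticulum and cochaperone lists summed to 1220.1 RPKM at 12 °C and 25684 RPKM at 28 °C, or 0.974% and 19.2% of the table's RPKM. At 18 and 23 °C the same rows summed to 1436.6 and 1458.5 RPKM, or 1.36% and 1.56%. Those shares are not like for like, because the abundant muscle gene mylpf is listed at 0 at 18 °C and atp2a1l at 0 at 23 °C. Together these genes held 33.2% of the table's RPKM at 12 °C, so a 0 in either makes the total smaller and the share larger. RPKM is relative to the reads of a library, so a larger share for the folding genes leaves a smaller share for the rest. Its part in the lower genes was not tested. Outside the 3 lists, 1429 of 4300 genes were higher and 983 lower. In bulk muscle, fewer cells of a type and less RNA per cell cannot be told apart.

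Cochaperones, which hand clients to Hsp70 and Hsp90 or time their cycles, were mostly higher: 16 of 20 were higher and 0 lower (1 lower with the authors' constant), with a median log2 fold of 3.32. The nucleotide exchange factor bag3, which couples Hsp70 to autophagy in muscle, was at 20.9, 13.4, 11.5 and 1241 RPKM (log2 fold 5.83). An Hsp40 partner, dnajb1b, was at 5.89, 5.06, 3.80 and 422 RPKM (log2 fold 5.94). Both were lower at 18 and 23 °C than at 12 °C and far above all cooler libraries at 28 °C. The row named dnaja, another Hsp40 gene outside the list, was at 4.83, 8.03, 13.1 and 467 RPKM (log2 fold 6.33). Hsp90 partners were also higher, with the immunophilin fkbp4 at 15.3, 17.3, 24.2 and 611 RPKM (log2 fold 5.23) and the ATPase activator ahsa1 at 12.5, 13.3, 22.5 and 387 RPKM (log2 fold 4.85). The 4 genes of this list within 2-fold were dnajb12a, dnajc17, fkbp5 and dnajb5, and fkbp5, an immunophilin induced by glucocorticoids, was at 47.2, 27.8, 17.1 and 54.4 RPKM.

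The 20 genes with the largest folds at 28 °C were named by rule, among named genes averaging 5 RPKM or more and absent from the heat shock and endoplasmic reticulum lists. Cochaperones of the list made up 6 of them. The others were a mixed group that reached from 22.5 RPKM upward at 28 °C. Enzymes that modify collagen in the endoplasmic reticulum were among them: plod3, a lysyl hydroxylase, was at 4.58, 6.60, 10.4 and 295 RPKM (log2 fold 5.73). The collagen galactosyltransferase colgalt1 was at 0.896, 1.12, 1.95 and 47.4 RPKM (log2 fold 4.67), and the prolyl hydroxylase subunit p4ha2 at 1.82, 3.77, 9.88 and 83.3 RPKM (log2 fold 4.90). Of 7 genes for collagen hydroxylases and galactosyltransferases, a family picked after its values were seen, 6 were higher, with plod1 at 7.06 and 50.5 RPKM (log2 fold 2.67), and p3h2 at 2.99 and 2.25 RPKM was the exception.

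Several of the other large folds belonged to genes with little message in the cooler libraries. The Nogo-receptor-like gene rtn4rl2b was at 0.130, 0.104, 0.0265 and 48.8 RPKM (log2 fold 5.46), and the cytochrome b5 domain gene cyb5d1 at 0.217, 0.324, 0.553 and 32.5 RPKM (log2 fold 4.78). The AP-1 subunit fosl1 was at 0.0546, 0.0315, 0.111 and 32.2 RPKM (log2 fold 4.98). All 3 were under 1 RPKM at 12, 18 and 23 °C. The RGK-family GTPase rrad, which restrains voltage-gated calcium channels, was at 1.85, 2.74, 2.71 and 67.6 RPKM (log2 fold 4.59). A desaturase that makes monounsaturated fatty acids, scd, was at 6.26, 5.39, 4.73 and 197 RPKM (log2 fold 4.77), and the HECT-type ubiquitin ligase herc4 at 4.92, 5.43, 5.41 and 152 RPKM (log2 fold 4.69). The Golgi GTPase arf4 was above its 12 °C value already at 23 °C, at 0.0677, 0.438, 8.70 and 22.5 RPKM (log2 fold 4.46). The rest of the 20 were edrf1 at 1.88 and 55.5 RPKM, the spliceosomal prolyl isomerase ppil1 at 4.03 and 90.0 RPKM and leap2, an antimicrobial peptide gene of the liver marker list, at 1.56, 17.7, 4.65 and 58.7 RPKM.

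Among genes listed at 0 at 12 °C, 4 with a symbol were above 10 RPKM at 28 °C, and a fold against 0 has no value. They were vstm5 at 25.98 RPKM, the potassium channel subunit kcne1 at 20.8 RPKM, cart3 at 15.7 RPKM and ngs at 10.99 RPKM. At 18 and 23 °C they were all under 1 RPKM. Of the rows without a symbol, LOC109626154 had the largest fold, at 0.0251 and 2264 RPKM, followed by LOC109626317 at 0.0681 and 2121 RPKM. On the lower side were LOC109623495 at 57.97 and 0.524 RPKM and LOC109627977 at 29.6 and 0.269 RPKM.

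**Figure D2:**
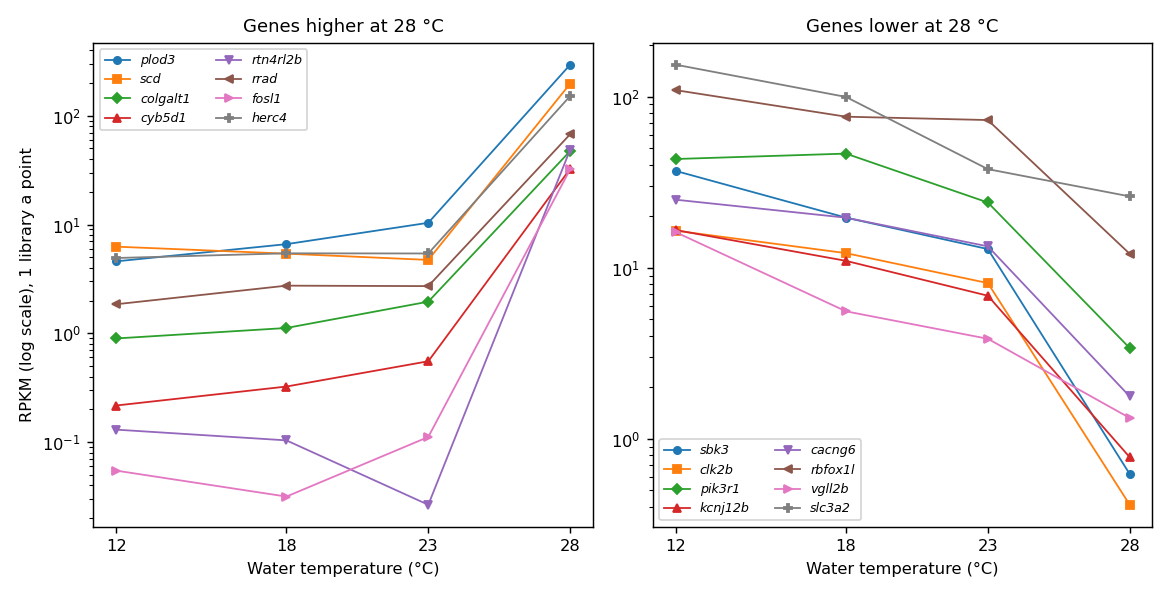
RPKM on a log scale against water temperature for 8 genes higher at 28 °C (left) and 8 lower (right), 1 library a point. On the left plod3 goes from 10.4 RPKM at 23 °C to 295 RPKM at 28 °C, while on the right rbfox1l goes from 72.9 to 12.1 RPKM and slc3a2 is at 37.7 RPKM by 23 °C.

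By the difference in RPKM itself, the 10 genes furthest above 12 °C outside those 2 lists were smyd1, bag3, ubb, mcl1b, unc45b, fkbp4, dnaja, dnajb4, dnajb1b and ahsa1. Of these 10, 8 serve protein folding or myosin assembly. The polyubiquitin gene ubb, a source of ubiquitin, was at 317, 346, 361 and 1405 RPKM (log2 fold 2.14). The anti-apoptotic gene mcl1b was at 687, 457, 768 and 1655 RPKM (log2 fold 1.27). Both were abundant in every library and stood highest at 28 °C.

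Genes that build or repair the contractile apparatus stood on both sides. Among thin filament and Z-disc genes 8 of 20 (40.0%) were higher and 4 (20.0%) lower, with a median of -0.03. These shares are near the 34.2% and 22.5% of all genes, and the lower count is 7 with the authors' scaling constant. The actin nucleator lmod3, which builds thin filaments, was at 18.3, 21.9, 19.9 and 242 RPKM (log2 fold 3.65). The repair-site protein xirp1 was at 0.801, 1.62, 1.013 and 25.5 RPKM (log2 fold 3.88), and klhl41, which stabilizes thin filaments, at 0.326, 1.06, 1.05 and 5.51 RPKM (log2 fold 2.29). These 3 stood highest at 28 °C. For the skeletal actin acta1a the 4 libraries gave 66.9, 395, 417 and 309 RPKM, so that 12 °C was the lowest and 23 °C the highest. On the lower side were synpo2la at 89.3 and 12.3 RPKM (log2 fold -2.77), its relative synpo2b at 35.9 and 6.65 RPKM (log2 fold -2.27) and the intermediate filament gene synm at 8.77 and 2.67 RPKM (log2 fold -1.41). Thick filament and titin-associated genes had 0 higher and 5 lower of 14 (median -0.79), or 3 lower after median scaling, with the myosin light chain kinase mylk4a at 29.0, 28.3, 12.4 and 2.62 RPKM (log2 fold -3.05) and the titin-linked obsl1b at 8.07 and 0.939 RPKM (log2 fold -2.23). The factors that fold myosin were far higher: the methyltransferase smyd1, which assembles thick filaments, was at 36.7, 42.7, 56.0 and 2429 RPKM (log2 fold 6.01), and the myosin chaperone unc45b at 25.6, 32.7, 33.2 and 888 RPKM (log2 fold 5.06). Near-identical actin and myosin genes may share reads, so their values are uncertain.

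Among the most abundant muscle genes, several were within 2-fold. The fast myosin light chain mylpf was at 25771 and 20633 RPKM and the calcium pump atp2a1l at 15859 and 14940 RPKM at 12 and 28 °C. Each is listed at 0 in 1 of the other libraries, mylpf at 18 °C and atp2a1l at 23 °C, and an exact 0 in such a gene can be a failed estimate. Kelch gene klhl31 (569 and 293 RPKM), Z-disc gene ldb3b (501 and 257 RPKM) and the selenium carrier selenop (404 and 213 RPKM) were just short of 2-fold lower. The calcium buffer pvalb1 was at 6441, 5153, 4481 and 2336 RPKM (log2 fold -1.46), and the membrane-skeleton ankyrin ank1 at 241, 208, 174 and 107 RPKM (log2 fold -1.16). Both were lower at each step. The largest difference toward 12 °C in RPKM was in a row without a symbol, which held 33850 RPKM at 12 °C, the highest value of that library, and 13468 RPKM at 28 °C.

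Genes for traffic from the endoplasmic reticulum to the Golgi were mostly higher. Of 38 genes in this list, 34 (89.5%) were higher and 0 lower, against 34.2% and 22.5% of all genes, and 27 were higher with the authors' constant. The list holds COPI and COPII coats, cargo receptors, Golgi tethers and related genes. It also includes the transcription factors creb3l2 and creb3l3l, both higher (log2 folds 1.11 and 2.55). The median was 1.51 on the log2 scale, and 42 rows of this list were held against 85 RefSeq names. Lectin-type cargo receptors led after arf4, with lman2lb at 1.51, 2.43, 3.19 and 34.0 RPKM (log2 fold 3.80) and lman2la at 0.639, 0.701, 0.983 and 14.7 RPKM (log2 fold 3.26). Lectin-type receptors carry glycoproteins out of the reticulum. The Golgi SNARE stx5, which fuses transport vesicles, was at 3.06, 3.68, 2.91 and 25.8 RPKM (log2 fold 2.72), and the COPII subunit sec23b at 1.21 and 10.6 RPKM (log2 fold 2.39). Between 12 and 23 °C these 4 genes differed by less than 2 RPKM.

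Messages of transfer RNA synthetases were higher in every member held, 7 of 7, with a median of 1.67. RefSeq names 24 such genes, and the others had no named row with values. Every row held passes 2-fold in at least 1 of the authors' columns, so the 7 do not stand for all 24. The threonyl and tyrosyl enzymes tars1 and yars were at 3.01, 4.44, 8.47 and 39.2 RPKM and at 6.26, 6.004, 7.33 and 30.9 RPKM. With the authors' constant 6 of the 7 were higher. Translation factors were split, 3 higher and 3 lower of 7 (median log2 fold 0.82), with 8 rows held against 52 RefSeq names. The release factor gene gspt1l was at 2.41 and 10.4 RPKM (log2 fold 1.74) and the initiation factor subunit eif3j at 25.3 and 69.6 RPKM (log2 fold 1.42). The gene eif4ebp3, for a repressor of the cap-binding protein, was at 164, 136, 113 and 37.5 RPKM (log2 fold -2.10), and the helicase eif4a2 at 106 and 40.9 RPKM (log2 fold -1.35). No row matched the list of cytosolic ribosomal proteins.

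Ribosome assembly genes leaned lower, with 2 higher and 5 lower of 13 and a median of -0.86, against 70 RefSeq names. The growth regulator myclb was at 4.97, 1.29, 0.760 and 0.216 RPKM (log2 fold -2.30). The nucleolar proteins nop56 and fbl, which guide RNA methylation, were at 58.8, 40.5, 27.9 and 18.9 RPKM and at 22.5, 14.3, 9.12 and 8.97 RPKM. All 3 stood highest at 12 °C, and fbl was nearly the same at 23 and 28 °C. The exceptions were the helicase ddx10 at 1.499 and 11.9 RPKM (log2 fold 2.37) and nhp2 at 14.2 and 59.4 RPKM (log2 fold 1.99). Genes of the mitochondrial ribosome, a family picked after its values were seen, had 8 higher and 2 lower of 13, with mrpl38 at 2.93 and 41.2 RPKM (log2 fold 3.42) and the mitochondrial protease lonp1 beside them at 0.770 and 25.7 RPKM.

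The amino acid response, driven by the transcription factor Atf4, had 13 of 23 genes higher and 4 lower (median log2 fold 1.14). Over all 28 rows without the minimum the median was 0.31. The 6 genes within 2-fold were sesn2, slc38a2, psph, eif2ak4, trib1 and shmt2, at log2 folds from 0.11 to -0.61. Several regulators of this response were higher, with atf3 at 0.680, 1.40, 1.62 and 21.2 RPKM (log2 fold 3.72), ddit3 at 6.01, 5.94, 10.5 and 30.8 RPKM (log2 fold 2.18) and atf4a at 39.1, 53.7, 66.6 and 143 RPKM (log2 fold 1.84). The growth arrest gene gadd45g was at 4.67 and 45.0 RPKM (log2 fold 3.02). The 4 lower genes were 3 transporters and sesn1: slc7a5, the leucine carrier, was at 18.3, 4.55, 2.48 and 1.495 RPKM (log2 fold -2.95) and its partner subunit slc3a2 at 154, 99.5, 37.7 and 26.1 RPKM (log2 fold -2.51). The cationic amino acid carrier slc7a1a was at 9.17 and 3.60 RPKM (log2 fold -1.15), and slc7a8a, a relative outside the list, at 31.3, 17.0, 11.8 and 2.25 RPKM (log2 fold -3.31). The regulators atf3, ddit3 and atf4a were at their highest at 28 °C while slc7a5, slc3a2 and slc7a8a were at their lowest there. The sestrin sesn1, which restrains mTOR, was at 52.7, 25.1, 14.1 and 6.62 RPKM (log2 fold -2.82).

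Genes for protein breakdown stood on both sides. Of 7 proteasome-list genes, against 57 with a RefSeq name, 3 were higher and 0 lower, or 1 lower with the authors' constant (median 0.79 as deposited). Higher were nfe2l1, a transcription factor that drives proteasome genes, at 5.39, 6.11, 9.53 and 40.7 RPKM (log2 fold 2.71) and the ubiquitin-binding zfand2a at 4.47 and 27.7 RPKM (log2 fold 2.39). Neither encodes a proteasome subunit. Among subunits, psmd4a was higher at 28.9 and 101 RPKM (log2 fold 1.76). Subunits psmd8 and psmd6 and the activator psme4 were within 2-fold, at log2 folds of 0.06, -0.83 and -0.96. Ubiquitin and muscle ligase genes had 4 higher and 5 lower of 14 (median log2 fold -0.77). The deubiquitinase otud1 was at 0.879 and 14.4 RPKM (log2 fold 3.04) and the ligase nedd4l at 6.28 and 23.7 RPKM (log2 fold 1.76). The atrophy ligase fbxo32 was at 103, 16.2, 12.7 and 17.2 RPKM (log2 fold -2.52), already low at 18 °C, and fbxo30a was at 10.3, 2.43, 1.82 and 2.24 RPKM. Both were highest at 12 °C and lowest at 23 °C. Sarcomere-bound ligase trim55 was at 15.4 and 4.37 RPKM (log2 fold -1.62), and the deubiquitinases usp13 and usp28 were at 119.8 and 44.0 RPKM and 481 and 223 RPKM.

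Of 16 autophagy and lysosome genes 5 were higher and 6 lower (median log2 fold -0.83). The membrane scramblases atg9b and atg9a were at 37.5, 17.4, 10.4 and 6.61 RPKM and 15.97, 9.80, 7.73 and 3.63 RPKM. Both were lower at each step. The lipid transfer gene atg2a was at 11.3 and 3.19 RPKM (log2 fold -1.56), and the starting kinase ulk2 at 5.18 and 1.51 RPKM (log2 fold -1.30). The cargo receptor sqstm1, which binds ubiquitinated proteins, was at 16.02, 14.1, 9.08 and 138 RPKM (log2 fold 3.03), and the lysosomal membrane gene lamp1b at 16.4, 12.5, 22.3 and 138 RPKM (log2 fold 3.00). Mitophagy receptor bnip3 was at 21.2 and 65.5 RPKM (log2 fold 1.58) and the protease ctsd at 45.1 and 104 RPKM (log2 fold 1.18).

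**Figure D3:**
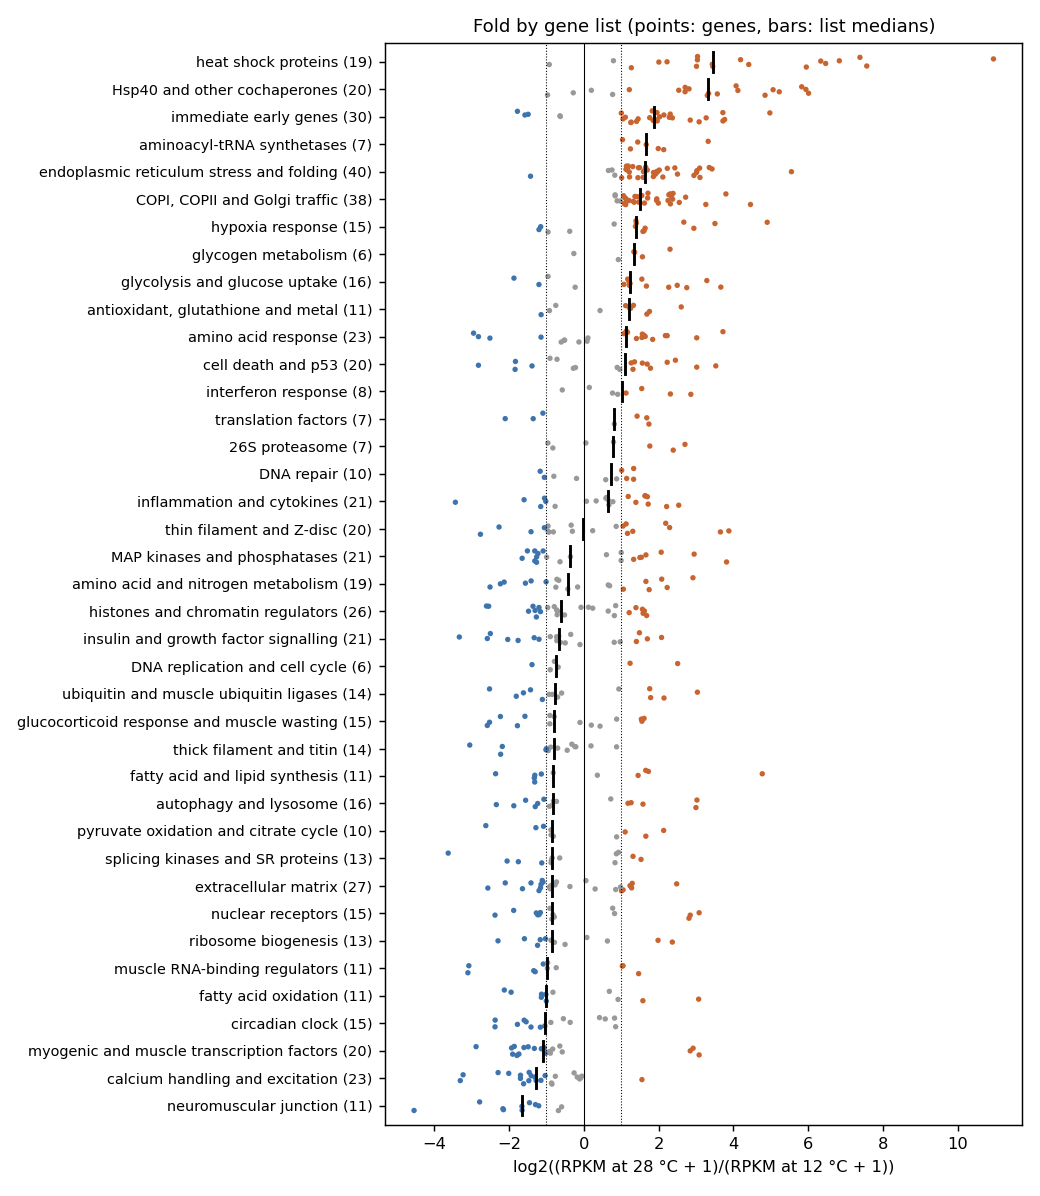
Log2 folds of single genes (points) and list medians (black bars) for lists with at least 6 genes, orange for at least 2-fold higher, blue for at least 2-fold lower and grey between. Gene numbers stand in brackets, and the solid line is the median of all 4378 genes at 0.01. The medians run from 3.45 for heat shock proteins to -1.65 for the neuromuscular junction list. That list includes sbk3, lrtm1 and ptpn21, added because earlier results showed them to be low, and its median without them is -1.37.

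Signalling genes that respond within minutes were mostly higher. Of 30 immediate early genes, 25 were higher and 3 lower (median log2 fold 1.88). However, 7 of the 30 were under 1 RPKM at 12 °C, fosl1 among them. These met the minimum only through their 28 °C value, so they could not come out lower. Beside fosl1, the transcription factor junbb was at 2.59, 3.10, 2.11 and 47.8 RPKM (log2 fold 3.77) and ier2a at 4.45, 4.47, 2.82 and 51.6 RPKM (log2 fold 3.27), and both stood within 2-fold of 12 °C at 18 and 23 °C. The lower members were per1b, klf9 and srfb, of which klf9, a glucocorticoid target, was at 12.6, 8.33, 2.13 and 3.57 RPKM (log2 fold -1.58). MAP kinase genes were split, 7 higher and 8 lower of 21 (median log2 fold -0.36). On the higher side were phosphatases of this family, with dusp5 at 0.977, 1.45, 1.17 and 26.9 RPKM (log2 fold 3.82), dusp2 at 0.104 and 3.63 RPKM (log2 fold 2.07) and dusp6 at 4.66 and 16.9 RPKM (log2 fold 1.66), together with the kinase mknk1 at 1.82 and 20.8 RPKM (log2 fold 2.95). Rows with dusp names stood on the lower side as well, though a name alone does not show phosphatase activity. The 2 rows named dusp27, the most abundant of the list, were at 96.2 and 39.5 RPKM and at 89.4 and 35.4 RPKM. The phosphatase dusp22b was at 3.72 and 0.658 RPKM (log2 fold -1.51). Of the kinases, mapkapk3 was at 10.5, 6.36, 3.33 and 2.67 RPKM (log2 fold -1.65) and map2k6 at 6.12 and 1.87 RPKM (log2 fold -1.31). The p38 kinase mapk14a was lower, at 6.44 and 2.50 RPKM, and its relative mapk14b higher, at 1.62 and 6.41 RPKM.

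Cell death genes had 10 higher and 4 lower of 20 (median log2 fold 1.11). Both pro-death and protective genes were on the higher side: casp8, an initiator caspase, was at 2.08, 2.44, 2.46 and 34.6 RPKM (log2 fold 3.53), the pore-forming bax at 3.03 and 9.02 RPKM (log2 fold 1.31), and the caspase inhibitor birc2 at 6.92, 5.38, 4.76 and 42.3 RPKM (log2 fold 2.45). The survival gene bcl2b was at 1.92 and 8.46 RPKM (log2 fold 1.70). On the lower side were sesn1, the death receptor tnfrsf21 at 11.9 and 2.61 RPKM (log2 fold -1.84), tp53inp2 at 20.0 and 4.92 RPKM (log2 fold -1.83) and rrm2b at 10.01 and 3.21 RPKM (log2 fold -1.39). DNA replication genes were scarce in muscle, with 6 of 42 rows meeting the minimum, 2 higher and 1 lower, and the sliding clamp pcna was at 6.87, 8.36, 10.9 and 43.8 RPKM (log2 fold 2.51). DNA repair had 4 higher and 2 lower of 10 (40.0% and 20.0%), near the 34.2% and 22.5% of all genes. The excision repair helicase ercc3 was at 4.22 and 12.2 RPKM (log2 fold 1.33), and nbn, on the lower side, at 4.50 and 1.45 RPKM (log2 fold -1.17).

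Genes of glucose use were mostly higher. Of 16 glycolysis and glucose uptake genes, 12 were higher and 2 lower (median log2 fold 1.23). The enzyme pfkfb3, which makes the activator of phosphofructokinase, was at 0.402, 0.665, 0.741 and 16.8 RPKM (log2 fold 3.66), and the hexokinase hk1 at 1.63, 1.39, 1.85 and 13.9 RPKM. The glucose carrier slc2a1b was at 6.65, 9.51, 9.76 and 73.8 RPKM (log2 fold 3.29). At 18 and 23 °C all 3 were within 2-fold of their 12 °C values. Other forms of the same bifunctional enzyme were lower, with pfkfb2 at 15.7, 12.7, 9.19 and 3.57 RPKM (log2 fold -1.87) and pfkfb1 at 116, 97.995, 134 and 49.8 RPKM (log2 fold -1.20). Of 6 glycogen genes 4 were higher, each a phosphatase-targeting subunit or a phosphoglucomutase, with ppp1r3db at 15.0 and 46.4 RPKM (log2 fold 1.57). Of the higher glycogen genes, ppp1r3g (0.381, 4.57, 0.216 and 5.83 RPKM) was also higher at 18 °C than at 12 and 23 °C. Liver markers summed to 5649 RPKM in the 18 °C library, and the part of liver RNA was not tested. Pyruvate and citrate cycle genes had 3 higher and 3 lower of 10 (median log2 fold -0.85). The pyruvate dehydrogenase kinase pdk2a was at 15.8, 7.91, 2.54 and 1.72 RPKM (log2 fold -2.62), and the succinate dehydrogenase subunit sdhb at 4.74, 2.73, 5.76 and 24.2 RPKM (log2 fold 2.14). Of 4 genes of the respiratory chain list, which also holds the carriers ucp1 and slc25a5, 3 were higher and 0 lower. With the authors' constant only 1 was higher and 0 lower. The 3 higher as deposited were cox6b1 at 11.3, 21.3, 40.1 and 80.4 RPKM, uqcr11 at 15.4 and 34.0 RPKM (log2 fold 1.09) and ucp1. The values of ucp1 were 0.122, 25.02, 0.199 and 1.92 RPKM, highest at 18 °C, where liver markers were. The part of liver RNA was not tested, and 6 rows of this list were analysed here against 76 RefSeq names.

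Fat oxidation had 2 higher and 6 lower of 11 (median log2 fold -1.003), or 4 lower after median scaling, and the median over all 16 rows without the minimum was -0.04. The fatty acid carrier fabp7a was at 40.8, 52.3, 34.6 and 8.58 RPKM (log2 fold -2.13) and the carnitine transferase cpt1b at 14.0, 15.0, 7.16 and 2.89 RPKM (log2 fold -1.95). The hormone-sensitive lipase lipe, at 2.37, 2.07, 1.36 and 27.3 RPKM (log2 fold 3.07), was the larger of the 2 exceptions. In lipid synthesis 4 of 11 were higher and 5 lower (median log2 fold -0.82), and over all 20 rows without the minimum the median was 0.01. One of the 4, thrsp, was at 0.540, 73.7, 0 and 3.85 RPKM, highest at 18 °C like the liver markers, whose part was not tested. Of the lipin rows, lpin1a (6.403 and 0.442 RPKM), lpin1b (17.1 and 6.21 RPKM) and lpin1 (30.5 and 11.7 RPKM), were lower, while lpin2 was at 0.322 and 3.38 RPKM. Lipins make the diglyceride used for fat and phospholipid synthesis. The cholesterol list had 4 of 15 rows above the minimum, with fdft1 at 8.72 and 1.69 RPKM (log2 fold -1.86) and fdps at 4.55 and 1.56 RPKM (log2 fold -1.12) lower and pmvk at 3.02 and 10.1 RPKM (log2 fold 1.46) higher.

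Nitrogen metabolism was even, 6 higher and 6 lower of 19 (median log2 fold -0.43). Glutaminase rows gls2 and gls2b were at 9.48, 8.05, 2.04 and 0.840 RPKM and 7.46, 4.41, 2.38 and 0.932 RPKM, and the glutamine synthetase glula at 72.1, 20.3, 9.205 and 14.6 RPKM. The other glutaminase gene, gls, was at 3.99, 4.49, 3.58 and 14.8 RPKM. Within this list the creatine carrier slc6a8 (13.3 and 107 RPKM) and the creatine kinase ckba (7.96 and 41.0 RPKM) were higher, and so was the polyamine enzyme odc1 (0.770 and 4.94 RPKM). Oxidant defence and metal genes had 7 higher and 1 lower of 11, or 2 lower with the authors' constant (median as deposited 1.22), with the zinc exporter slc30a1 at 0.711 and 9.41 RPKM (log2 fold 2.61) and the peroxiredoxin prdx1 at 2.43 and 10.04 RPKM (log2 fold 1.69) on one side and the iron exporter slc40a1 at 3.70 and 1.13 RPKM (log2 fold -1.14) on the other. Hypoxia genes had 10 higher and 2 lower of 15 (median 1.41), led by p4ha2 and its relative p4ha1 (2.69, 3.70, 6.38 and 41.0 RPKM). The oxygen-sensing hydroxylase egln2 was at 10.9, 17.7, 35.0 and 90.7 RPKM (log2 fold 2.94) and was higher at each step. The lower genes were kdm4c (3.04 and 0.761 RPKM) and mxi1 (4.38 and 1.42 RPKM).

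Genes that make a muscle fibre excitable were mostly lower. Of 23 calcium handling and excitation genes, 14 (60.9%) were lower and 1 higher, with a median log2 fold of -1.28 against 0.01 for all genes. The inward rectifier kcnj12b, which sets the resting potential, was at 16.6, 11.0, 6.86 and 0.781 RPKM (log2 fold -3.30). Calcium channel subunit cacng6 was at 24.96, 19.6, 13.3 and 1.77 RPKM (log2 fold -3.23), and the sodium-calcium exchanger slc8a3 at 6.78, 3.61, 1.94 and 0.588 RPKM (log2 fold -2.29). In all 3 the value was lower at each step of warming. The coupling protein stac3, which links the surface calcium channel to release from the reticulum, was at 85.4, 63.9, 36.8 and 20.5 RPKM (log2 fold -2.01). Surface channels were also lower, with chloride channel clcn1 at 4.39 and 0.663 RPKM (log2 fold -1.70) and sodium channel scn4a at 14.5 and 4.59 RPKM (log2 fold -1.47), and the sodium pump atp1a2a was at 144 and 58.9 RPKM (log2 fold -1.28). The single higher gene was the calcium pump atp2a2b at 1.22 and 5.51 RPKM (log2 fold 1.55).

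At the neuromuscular junction 9 of 11 genes were lower and 0 higher (median log2 fold -1.65). The list includes sbk3, lrtm1 and ptpn21, added because earlier results showed them to be low. Without these additions 6 of 8 were lower (median log2 fold -1.37). Acetylcholine receptor subunits made up most of them: chrnd was at 42.0, 30.3, 19.1 and 8.69 RPKM (log2 fold -2.15) and chrnb1 at 17.0, 12.9, 11.1 and 5.58 RPKM (log2 fold -1.45). The 2 rows named chrna1 were at 44.1 and 13.4 RPKM and at 15.3 and 5.67 RPKM, and chrne at 24.2 and 9.91 RPKM (log2 fold -1.21). The collagen tail of acetylcholinesterase, colq, was at 3.02, 1.21, 0.879 and 0.278 RPKM (log2 fold -1.66). The 2 genes within 2-fold only because 1 RPKM is added, rapsn (2.04 and 0.8997 RPKM) and ache (1.52 and 0.666 RPKM), were also below their 12 °C values.

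Transcription factors of muscle identity were mostly lower, 12 of 20 (60.0%), with 3 higher (median log2 fold -1.10). The cofactor vgll2b was at 16.1, 5.56, 3.84 and 1.32 RPKM (log2 fold -2.88), the fibre regulator mef2c at 13.8, 7.68, 4.06 and 2.87 RPKM (log2 fold -1.93) and mef2a at 31.6, 29.8, 18.4 and 8.77 RPKM (log2 fold -1.74). All 3 were lower at each step, and mef2a was close to its 12 °C value at 18 °C. Others on the lower side were tbx15 at 8.84 and 1.63 RPKM (log2 fold -1.90), eya1 at 5.29 and 0.732 RPKM (log2 fold -1.86) and sox6, a repressor of slow fibre genes, at 3.27 and 0.707 RPKM (log2 fold -1.32). Myogenin, a driver of fibre formation, was at 10.2 and 4.90 RPKM (log2 fold -0.92), inside 2-fold once 1 RPKM is added. The higher genes were ankrd1, a stretch-responsive cofactor, at 3.40, 7.39, 8.15 and 32.3 RPKM (log2 fold 2.92), and the 2 rows of the nuclear receptor nr4a3, at 0.785 and 11.8 RPKM and at 1.07 and 16.6 RPKM.

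**Figure D4:**
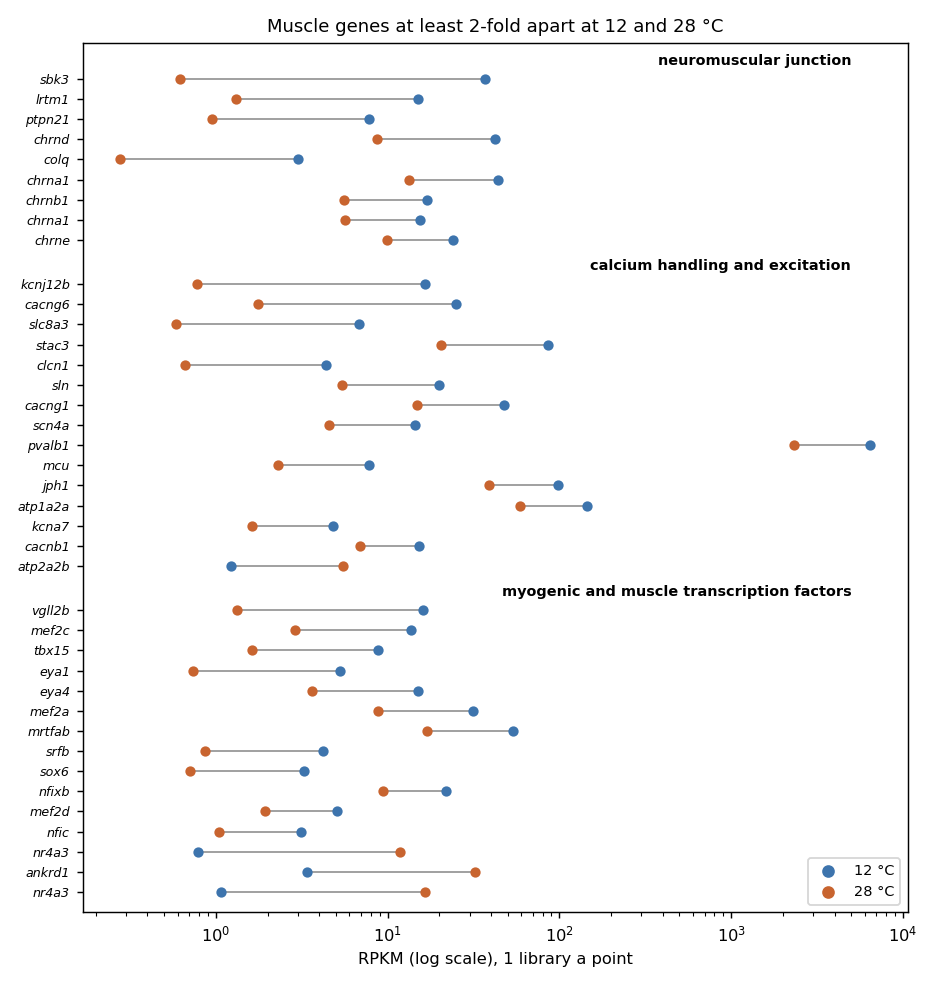
RPKM on a log scale at 12 °C (blue) and 28 °C (orange) for the genes of 3 muscle lists that were at least 2-fold apart, 1 library a point, with a line joining the 2 values of a gene. All 9 genes of the neuromuscular junction list shown, 14 of 15 calcium and excitation genes and 12 of 15 muscle transcription factors have the orange point on the left. The junction list includes sbk3, lrtm1 and ptpn21, added because earlier results showed them to be low.

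Among muscle RNA-binding regulators 5 of 11 were lower and 3 higher (median log2 fold -0.98), and 7 and 1 with the authors' constant. The splicing regulators rbfox1l and mbnl1, which set muscle exon choice, led the lower side: rbfox1l was at 109, 76.3, 72.9 and 12.1 RPKM (log2 fold -3.08), and the 2 rows of mbnl1 at 29.7 and 2.58 RPKM and at 58.6 and 22.5 RPKM. An RNA chaperone induced by cold, cirbp, was at 226, 189, 111 and 91.2 RPKM (log2 fold -1.30), lower at each step. Higher members included hnrnph1 at 4.76 and 14.9 RPKM (log2 fold 1.47). Among splicing kinases and SR proteins 4 of 13 (30.8%) were lower, against 22.5% of all genes, and 2 higher (median log2 fold -0.85). The kinase clk2b, which phosphorylates SR proteins, was at 16.5, 12.2, 8.13 and 0.412 RPKM (log2 fold -3.63), srsf5 was at 19.7, 10.5, 6.399 and 4.002 RPKM (log2 fold -2.05), and rsrp1 was higher at 25.9 and 66.0 RPKM (log2 fold 1.32).

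Of 21 insulin and growth factor genes 7 were lower and 4 higher (median log2 fold -0.67). The regulatory subunit pik3r1 was at 43.2, 46.4, 24.05 and 3.39 RPKM (log2 fold -3.33), the transcription factor foxo3b at 15.7, 8.35, 5.21 and 1.78 RPKM (log2 fold -2.58), and the mTOR inhibitor deptor at 8.43, 7.19, 4.40 and 0.666 RPKM (log2 fold -2.50). All 3 stood lowest at 28 °C, and pik3r1 was at its highest at 18 °C. Growth hormone receptor rows ghr and ghrb were at 9.60 and 1.59 RPKM (log2 fold -2.03) and 15.2 and 3.79 RPKM (log2 fold -1.76). Higher were akt3b at 0.847 and 6.81 RPKM (log2 fold 2.08), irs2 at 0.775 and 4.77 RPKM (log2 fold 1.70) and smad2 at 0.358 and 2.81 RPKM (log2 fold 1.49). The other higher gene was igfbp1a at 0.0972 and 1.91 RPKM (log2 fold 1.41). Of the 21 genes, 5 were under 1 RPKM at 12 °C, among them all 4 higher ones. These met the minimum only through their 28 °C value, so they could not come out lower. The list named for glucocorticoid response and muscle wasting shares foxo3b, fbxo32, glula, per1b and klf9 with the lists above, and these are its 5 lower genes of 15, against 3 higher.

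Clock genes had 8 lower and 0 higher of 15 (median log2 fold -1.04). The nuclear receptor rorca was at 6.96, 3.39, 2.88 and 0.533 RPKM (log2 fold -2.38) and the output gene dbpb at 4.64, 4.57, 3.50 and 0.935 RPKM (log2 fold -1.54), and clock itself, the activator of the loop, at 3.55, 2.80, 1.65 and 0.507 RPKM (log2 fold -1.60). All 3 were lower at each step. The hour of sampling is not given in the labels, so hour and temperature cannot be told apart for these genes. Nuclear receptors and their cofactors had 6 lower and 3 higher of 15 (median -0.86), with the corepressor ncor1 at 15.6, 12.9, 7.72 and 3.53 RPKM (log2 fold -1.88) and the androgen receptor ar at 1.90 and 0.263 RPKM (log2 fold -1.20). Chromatin genes had 8 lower and 6 higher of 26 (median log2 fold -0.61). The acetyltransferase kat2b was at 6.95, 4.52, 4.205 and 0.363 RPKM (log2 fold -2.55) and the deacetylase hdac9 at 22.5, 12.0, 13.0 and 2.87 RPKM (log2 fold -2.60), while the acetyl-lysine readers brd2a and brd3b were higher at 5.85 and 21.0 RPKM and 3.30 and 11.9 RPKM.

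The 20 largest negative folds under the naming rule also held genes of no list. At every step from 12 to 28 °C 17 of the 20 had a lower value. The taurine carrier slc6a6 was at 26.4, 23.2, 4.54 and 1.90 RPKM (log2 fold -3.24), and the ligase adaptor asb10 at 31.0, 18.8, 20.0 and 2.26 RPKM (log2 fold -3.29). The kinase gene sbk3 of the junction list was at 36.8, 19.6, 12.9 and 0.623 RPKM (log2 fold -4.54), the fatty acid elongation enzyme tecra at 21.99, 11.3, 7.72 and 1.73 RPKM (log2 fold -3.07) and the vesicle protein syngr2 at 59.5, 34.7, 30.8 and 6.31 RPKM (log2 fold -3.05). Of these 5, asb10 was not lower at each step. The kinase mast4 (12.2 and 0.829 RPKM), the membrane protein lrtm1 of the same list (15.0 and 1.32 RPKM) and phtf2 (26.7 and 2.77 RPKM) completed the group with the genes given above and cxcl13.

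Matrix and immune genes were mixed. Of 27 extracellular matrix genes 10 were lower and 6 higher (median log2 fold -0.85). The proteoglycan gpc6 was at 7.68, 3.51, 2.10 and 0.464 RPKM (log2 fold -2.57), the matrix protein postnb at 57.4 and 12.6 RPKM (log2 fold -2.10), the laminin receptor itga7 at 14.9 and 4.10 RPKM (log2 fold -1.64) and the collagenase mmp2 at 34.2 and 12.2 RPKM (log2 fold -1.41). Higher were the protease mmp19 at 1.24 and 11.5 RPKM (log2 fold 2.48), the laminin chain lamc1 at 12.6 and 32.4 RPKM (log2 fold 1.29) and the inhibitor timp2b at 17.9 and 43.5 RPKM (log2 fold 1.24). Of 21 cytokine and signalling genes 8 (38.1%) were higher and 5 (23.8%) lower (median 0.66), near the 34.2% and 22.5% of all genes. Of the 21, 9 were under 1 RPKM at 12 °C. The chemokine receptor cxcr4 was at 1.48, 1.73, 1.46 and 13.4 RPKM (log2 fold 2.54), tnfaip2 at 1.64 and 11.3 RPKM (log2 fold 2.21) and the cytokine brake socs3 at 2.71 and 10.5 RPKM (log2 fold 1.63), against cxcl13 at 28.2, 0.218, 0.0558 and 1.69 RPKM (log2 fold -3.44), cish at 8.44 and 2.12 RPKM (log2 fold -1.60) and the chemokine ccl25b at 7.50 and 2.82 RPKM (log2 fold -1.15). The list named for interferon response had 4 higher and 0 lower of 8 (median 1.02). The higher were stat6 at 2.92, 3.06, 2.86 and 27.5 RPKM (log2 fold 2.86), irf5 at 1.97 and 13.8 RPKM (log2 fold 2.32), mx1 and irf1b. Within 2-fold were irf4a, irf8, dhx58 at 2.49 and 2.86 RPKM and trim25 at 4.46 and 2.66 RPKM.

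Markers of other tissues differed between the 2 libraries. Over the 4 libraries in order of temperature the 49 liver markers summed to 70.0, 5649, 80.6 and 618 RPKM. Of the 30 that met the minimum 28 were higher and 0 lower (median log2 fold 2.30). However, 13 of the 30 were under 1 RPKM at 12 °C and so met the minimum only through their 28 °C value. Over all 49 rows without the minimum the median was 1.71. At 12 °C 3 of the 49 were listed at 0, and at 28 °C none was. The 30 had their highest value at 18 °C, among them apoa4 at 14.0, 1544, 18.3 and 134 RPKM, except leap2, which stood highest at 28 °C. The 7 exocrine pancreas markers summed to 15.6, 248, 20.3 and 55.4 RPKM. All 6 that met the minimum were higher, of which 2 were under 1 RPKM at 12 °C. A higher gene of the nuclear receptor list, ncoa7 (0.685, 3.86, 0.798 and 10.8 RPKM), was also higher at 18 °C than at 12 and 23 °C. The part of liver or pancreas RNA in the higher genes was not tested, and without the rows of these 2 lists 1463 genes were higher and 984 lower. Leukocyte markers summed to 33.9, 15.5, 13.1 and 58.3 RPKM, with 2 of 13 higher, and adipocyte markers to 13.8, 17.9, 5.89 and 41.9 RPKM, where lipe supplied 27.3 RPKM at 28 °C. Their part in the immune and lipid genes above was not tested.

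Skin and nerve markers were lower in sum and vessel and red cell markers were low. Skin epithelium markers summed to 79.3, 98.6, 50.7 and 41.1 RPKM, nerve and glia markers to 53.7, 54.1, 38.6 and 29.8 RPKM, and the 4 endothelial markers to 1.09, 1.68, 1.99 and 3.39 RPKM. The 9 red cell markers summed to 1.61 and 1.09 RPKM at 12 and 28 °C, and none met the minimum. Of the 4 nerve and glia markers that met the minimum 1 was lower, the myelin gene mbpa at 44.3, 44.0, 31.4 and 20.9 RPKM, which made up most of the sum, and 1 higher, egr2 at 1.09 and 3.18 RPKM, or 0 higher with the authors' constant. The part of nerve tissue in the junction genes was not tested. The muscle label was checked against mylpf, atp2a1l and pvalb1, which are the 3 highest named rows at 12 °C. Slow fibre markers summed to 129 RPKM at 12 °C and 74.5 RPKM at 28 °C. Of 11, 1 was higher and 2 lower, or 1 lower after median scaling and 3 with the authors' constant. The 2 lower were myl2b at 92.6 and 45.4 RPKM and sox6, which represses slow fibre genes and so does not mark slow fibres. The fast markers summed to 48089 and 37919 RPKM, with 0 of 5 higher and 1 lower.

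**Figure D5:**
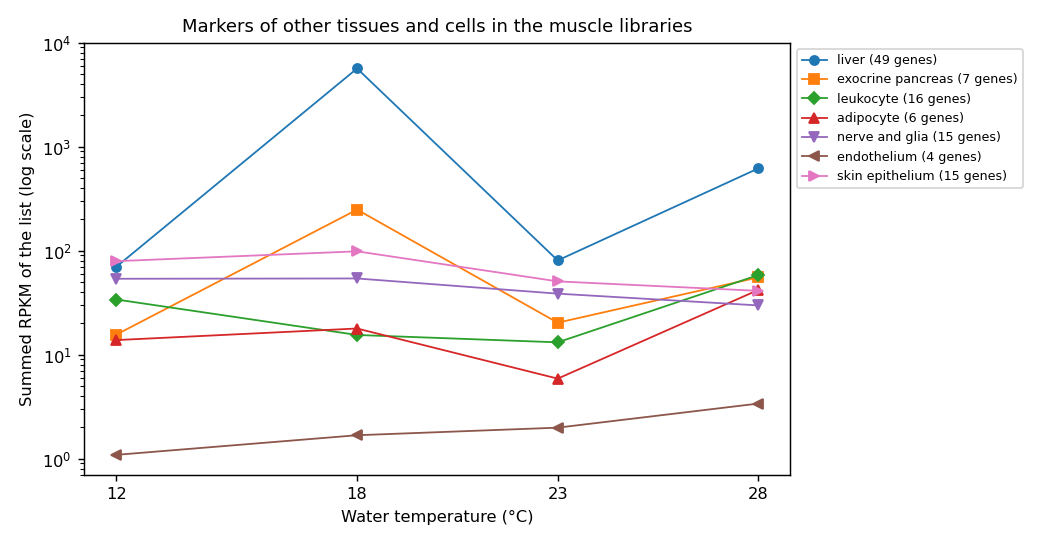
Summed RPKM (log scale) of the marker lists of other tissues and cells in each muscle library, against water temperature, 1 library a point. The liver sum peaks at 5649 RPKM at 18 °C and is 618 RPKM at 28 °C, against 70.0 RPKM in the 12 °C library, and the leukocyte and adipocyte sums stand highest at 28 °C.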

How the data were processed

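The labels describe 24 samples, of which 4, the series C muscle samples at 12, 18, 23 and 28 °C, have a column in the deposited table, and the other 20 were not analysed here. Per the file headers, the authors deposited RPKM values for each gene. Per the submitters' processing notes the tools were TopHat2 and Cufflinks, with no version. Genome build and annotation were not given in the sources used here. The authors' comparison columns are natural log ratios plus a constant, as read from the deposited values (within 0.00001 for 11633 rows at 28 °C), although the headers say log2. In those columns each of the 11646 rows reaches a 2-fold difference from 12 °C at least once. Symbols came from the table for 4120 rows and from RefSeq (assembly ASM2471397v2, names only) for 2788. Near-identical copies may share reads.

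The absolute depth is unknown. Low values lie on steps of 1 read, and 250 of 1188 rows under 0.1 RPKM in both libraries lay on the step taken as equal reads. That step gives the 28 °C library 1.013 times the depth of the 12 °C library. It was searched for only among ratios near equal depth, so a depth far from equal could not have been found. Folds, counts and medians were computed with pandas 2.3.3 in Python 3.11.15, with a pseudocount of 1 RPKM and a minimum mean of 1 RPKM, and the counting step was tested on simulated data. No p-value is given, because each temperature is 1 library. The genes and the 53 lists were chosen with earlier results of these data known. Named genes were the 20 largest folds each way, the 10 largest RPKM differences each way (symbol, mean of at least 5 RPKM, outside the heat shock and endoplasmic reticulum lists), up to 4 members each way per list, and those next to the limit. Other list members named were added after their values were seen. Alternatives were 2 other pseudocounts, a minimum of 5 RPKM or none, scaling by the median ratio or the authors' constant, and leaving out liver and pancreas markers.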

Additional observations from a re-analysis of the deposited data

Results flagged for a closer look

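Signals of other tissues stand in the 18 °C muscle library, which the comparison of 28 with 12 °C does not use, above the 12 °C library. Liver markers summed to 5649 RPKM there against 70.0 RPKM at 12 °C. Exocrine pancreas markers summed to 248 RPKM there against 15.6 RPKM at 12 °C. The cause of either was not tested.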

How the results depend on the processing

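The counts of 1497 higher and 984 lower genes moved most with the treatment of low values. A pseudocount of 0.1 RPKM gave 1538 lower genes, and one of 5 RPKM gave 642 higher and 355 lower. With a minimum mean of 5 RPKM, which leaves 1668 genes, 795 were higher and 530 lower. Other settings stayed within 1.5 times: 1926 higher with a pseudocount of 0.1 RPKM, 1574 and 1014 with no minimum, 1522 and 952 after scaling by the median ratio, and 1299 and 1145 with the authors' constant, which shifts every fold of an abundant gene by -0.14 on the log2 scale. Higher genes were 60.3% of the calls as deposited and between 53.2% and 64.4% in the 7 alternatives. The authors' own 28 °C column, which is not among the 7, shows no such excess of higher genes. In that column 1907 of the 4378 genes pass the 2-fold limit upward and 1935 pass it downward. Its ratios carry the authors' constant and no added 1 RPKM, so the excess depends on how low values are treated and on scaling. The sign of a gene past 2-fold says nothing further here. A pseudocount, a minimum or left-out rows cannot change it, and both scalings shift folds too little to do so. List medians moved by 0.5 or more in 12 lists with the minimum of 5 RPKM, 21 with none, 2 with the lower and 16 with the higher pseudocount, and in 0 under either scaling. They changed sign in 7 lists with the minimum of 5 RPKM: translation factors (-1.09), amino acid and nitrogen metabolism (0.24), MAP kinases (0.49), glucocorticoid response (0.20), DNA replication (0.56), cytokines (-0.89) and nuclear receptors (2.81). With no minimum they did so in 4: thin filament (0.06), lipid synthesis (0.01), DNA repair (-0.003) and skin (0.02). The thin filament median also did so after median scaling (from -0.03 to 0.26) and with a pseudocount of 5 RPKM (0.02). No paired analysis was possible because each temperature has 1 library. The absolute depth is unknown, so counting error cannot be given, and genes near 1 RPKM rest on an unknown number of reads.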

Other observations

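A few gene families, picked after their values were seen, show further groups among the genes of the pair. The asb genes encode substrate adaptors of ubiquitin ligases, several of them typical of muscle. Of 8 that met the minimum 6 were lower at 28 °C and 0 higher, with asb15b at 10.8, 7.51, 8.44 and 0.830 RPKM (log2 fold -2.69) and asb5 at 10.7, 9.32, 5.98 and 1.85 RPKM (log2 fold -2.04), and asb4 and asb3 within 2-fold. F-box genes, adaptors of another ligase class, had 8 lower and 2 higher of 16, and usp deubiquitinases 7 lower and 1 higher of 13. Both hmgb1 genes, for a DNA-bending chromatin protein, were lower: hmgb1a was at 97.2, 66.1, 42.6 and 13.6 RPKM (log2 fold -2.75) and hmgb1b at 62.4, 43.3, 18.6 and 8.34 RPKM (log2 fold -2.76). Solute carriers had 24 higher and 21 lower of 74 (32.4% and 28.4%), near the 34.2% and 22.5% of all genes.

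A few genes were low at the middle temperatures and back near their 12 °C level at 28 °C, and these were also singled out after their values were seen. For arg2, an arginase, the libraries gave 36.01, 7.72, 4.01 and 32.0 RPKM. The values were 13.9, 6.85, 5.10 and 14.7 RPKM for the cytokine receptor subunit il6st and 7.07, 6.07, 1.47 and 7.56 RPKM for the amino acid carrier slc38a2. Their folds at 28 °C were -0.17, 0.07 and 0.09, so the comparison of 28 with 12 °C alone does not show them.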
